A study of Mus musculus with 7 samples.

Results

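The genes described here encode the proteins of the cytoplasmic ribosome. They were chosen by symbol: protein-coding mouse genes whose symbol starts with Rpl (large subunit) or Rps (small subunit), leaving out the Rps6k kinases, Rps19bp1 and symbols containing -ps, which mark pseudogenes. Of 48709 genes in each deposited table, 85 met this rule, 52 for the large and 33 for the small subunit. A filter on low counts kept 82 of them among 14907 genes tested, and Rpl3l, Rpl10l and Rpl39l did not pass it. Fau and Rack1 also encode ribosomal proteins but carry other symbols, so they are given apart.

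The RNA came from cochlear supporting cells, which flank and hold the sensory hair cells. Cochleae taken at postnatal day 1 were kept in organ culture for 48 h with 1 of 3 agents: DMSO (the solvent, 2 libraries), 10 µM GSK-343 (an inhibitor of EZH2, the methyltransferase of Polycomb repressive complex 2; 3 libraries) or 200 nM TSA (trichostatin A, an inhibitor of histone deacetylases; 2 libraries). All groups shared a medium with EGF and FGF, and GFP-positive cells were sorted from each by flow cytometry. The labels name neither the allele that drives GFP nor the strain, and do not say whether replicates came from separate cultures, so each p-value rests on a spread among samples that may be only technical.

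Each ribosome holds 1 copy of nearly every ribosomal protein, except the acidic proteins P1 and P2, which form dimers on the stalk of the large subunit. Ribosomal protein genes are among the most strongly transcribed housekeeping genes, and their mRNAs start with a run of pyrimidines (the 5′ terminal oligopyrimidine, or TOP, tract) through which the mTORC1 kinase complex and the RNA-binding protein LARP1 control translation. In mammals nearly all of them have processed pseudogenes, retrotransposed copies of the spliced mRNA, so a short read can match both a gene and its copies.

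Total expected counts were 2724381 and 2963228 with TSA, 3398893 to 4248336 with GSK-343, and 5124247 and 5974230 for DMSO. The deposited gene length exceeded the effective length (the number of positions where a fragment can start) by 49 bases (median over genes) in each DMSO library, but by 208.21 to 212.69 bases under either inhibitor, so the untreated samples were quantified in another read layout. Layout and treatment therefore cannot be told apart wherever DMSO is the reference. TSA and GSK-343 share a layout, and their comparison comes first.

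The start of the ribosomal protein genes is shown here because the TOP tract is what the members are best known to share. RefSeq promoters on GRCm38.p6 were found for 65 of the 85 genes. The 6 windows below run from 60 bases before the annotated start through 20 bases from the start on, in the direction of transcription. Capitals mark the longest run of C or T that overlaps the last 30 bases, counted within those 30. With the annotated start as first base, the marked run begins at base 12 in Rplp0, 2 in Rpl18, 4 in Rps26 and 9 in Rps12. In Rpl27a and Rps10 it begins before the start, at −4 and −3, and runs past it. No marked run begins at the annotated start, and whether it is the TOP tract was not tested. The first 4 are the members called lower with TSA than with GSK-343 that have the smallest adjusted p among those with such a run, and the last 2, Rpl27a and Rps10, are among the members with the largest adjusted p.
Rplp0 (chr5:115559407-115559486, + strand): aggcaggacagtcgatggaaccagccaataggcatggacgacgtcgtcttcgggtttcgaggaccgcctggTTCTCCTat
Rpl18 (chr7:45718011-45718090, + strand): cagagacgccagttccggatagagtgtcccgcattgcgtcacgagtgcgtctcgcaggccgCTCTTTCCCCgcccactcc
Rps26 (chr10:128626487-128626566, - strand): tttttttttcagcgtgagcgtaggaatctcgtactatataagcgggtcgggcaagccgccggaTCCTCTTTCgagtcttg
Rps12 (chr10:23787190-23787269, - strand): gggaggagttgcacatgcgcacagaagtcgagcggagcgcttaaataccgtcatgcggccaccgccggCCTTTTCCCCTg
Rpl27a (chr7:109519135-109519214, + strand): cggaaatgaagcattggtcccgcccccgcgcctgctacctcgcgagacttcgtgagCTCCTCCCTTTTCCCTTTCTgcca
Rps10 (chr17:27635225-27635304, - strand): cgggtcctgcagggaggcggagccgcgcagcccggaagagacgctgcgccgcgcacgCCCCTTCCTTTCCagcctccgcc

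A run of at least 6 bases of C or T, searched on the gene's strand from 10 bases before the start through 20 bases from it on, was present in 36 of the 65 members (55.4%) and in 7731 of 27025 promoters of all genes (28.6%). CTTTCC, which can lie inside such a run, was found on either strand of the 300-base promoter in 32 of 65 members (49.2%) and in 26.3% of all promoters. CCGGAAG, the core of sites for ETS-family transcription factors, was found in 25 of 65 members (38.5%) against 9.08% of all promoters, and TATAAA in 6 of 65 (9.23%) against 14.1%. Of the members called lower in the comparison that follows, 9 of the 17 with a promoter had the pyrimidine run, as had 26 of the 45 members tested and not called, a difference that was not tested.

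Measured per length, as TPM (transcript abundance corrected for length and library size), ribosomal protein genes held 4.84% and 5.79% of all transcripts with TSA, 7.88% to 9.05% with GSK-343, and in DMSO 1.67% and 1.997%. As shares of the expected count the values were 1.43% and 1.83% with TSA, 2.16% to 2.90% with GSK-343, and 0.749% and 0.796% for DMSO. The 3 groups did not overlap on either scale. Levels below are in CPM, counts scaled to a common library size with TMM factors, unless TPM is named. The median over the 82 tested members was 104 and 99.2 CPM in DMSO, 130, 209 and 213 CPM with GSK-343, and 85.4 and 111 CPM with TSA. GSK-343 replicate 1 was the lowest of its group and lay above both TSA libraries.

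**Figure D1:**
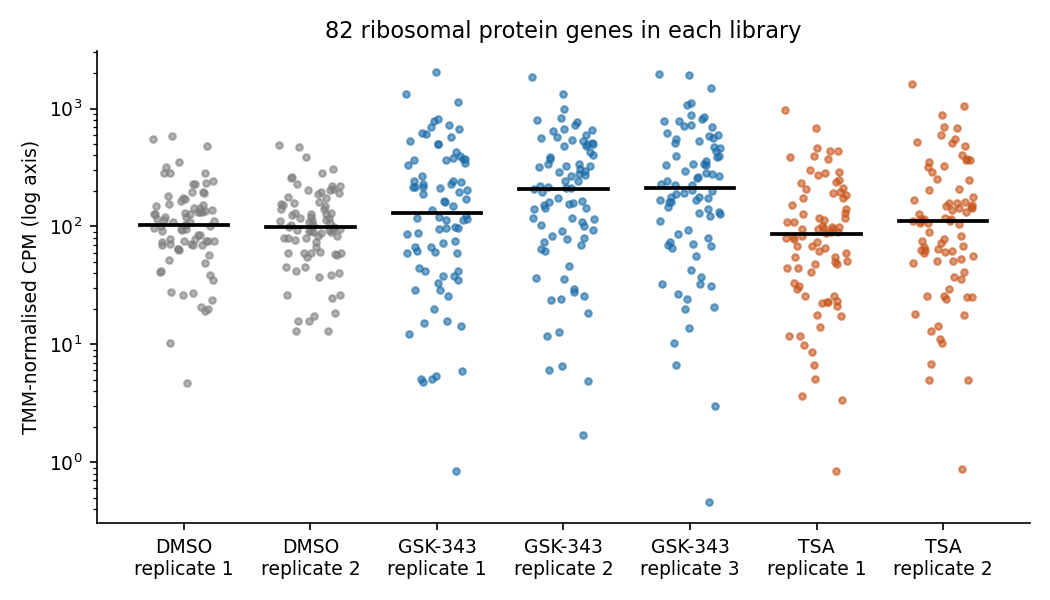
TMM-normalised CPM (log axis) of the 82 tested ribosomal protein genes in each of the 7 libraries, with 1 point per gene and a black bar at the median. The medians of the GSK-343 libraries, 130 to 213 CPM, sit above the TSA medians of 85.4 and 111 CPM, and single genes spread widely around the median in every library.

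The genes with the highest TPM also differed between layouts. In all 5 treated libraries Rpl27, a large subunit protein, led with 4140 to 9736 TPM, whereas it stood at 53.0 and 27.1 TPM in DMSO. In both DMSO libraries Rpl41, a tiny protein at the bridge between the subunits, led with 1486 and 1081 TPM. The SD of log2(TPM + 1) over the 77 core members was 1.19 and 1.29 for DMSO against 1.43 to 1.69 for the 5 other libraries, so the proteins of 1 particle had unequal measured mRNA.

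TSA libraries held less ribosomal protein mRNA than GSK-343 libraries. Of the 82 members tested, 24 fell and 0 rose (edgeR's quasi-likelihood test, Benjamini-Hochberg adjusted p below 0.05), 15 of 49 for the large and 9 of 33 for the small subunit. That is 29.3% lower calls, against a background of 5.68% called lower and 5.04% called higher among all 14907 genes. At an unadjusted p under 0.05, 47 members were lower and 1 was higher, where 14.4% and 13.5% of all genes were. The median log2 fold change was −0.85, against 0.00 over all genes tested, with quartiles of −1.21 and −0.42, and 77 of the 82 values were negative. Both TSA libraries lay below all 3 GSK-343 libraries in 51 members (62.2%), against 22.9% of all genes, and above them in 1 member (1.22%), Rpl39, against 23.5%. Total count scaling moved the median of all genes by 0.20, changed the calls over all genes from 752 higher and 846 lower to 1020 and 431, and called 12 members lower and 0 higher. The members then lay at −0.82 relative to all genes. In these bulk libraries fewer cells of a type and less RNA per cell cannot be told apart.

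**Figure D2:**
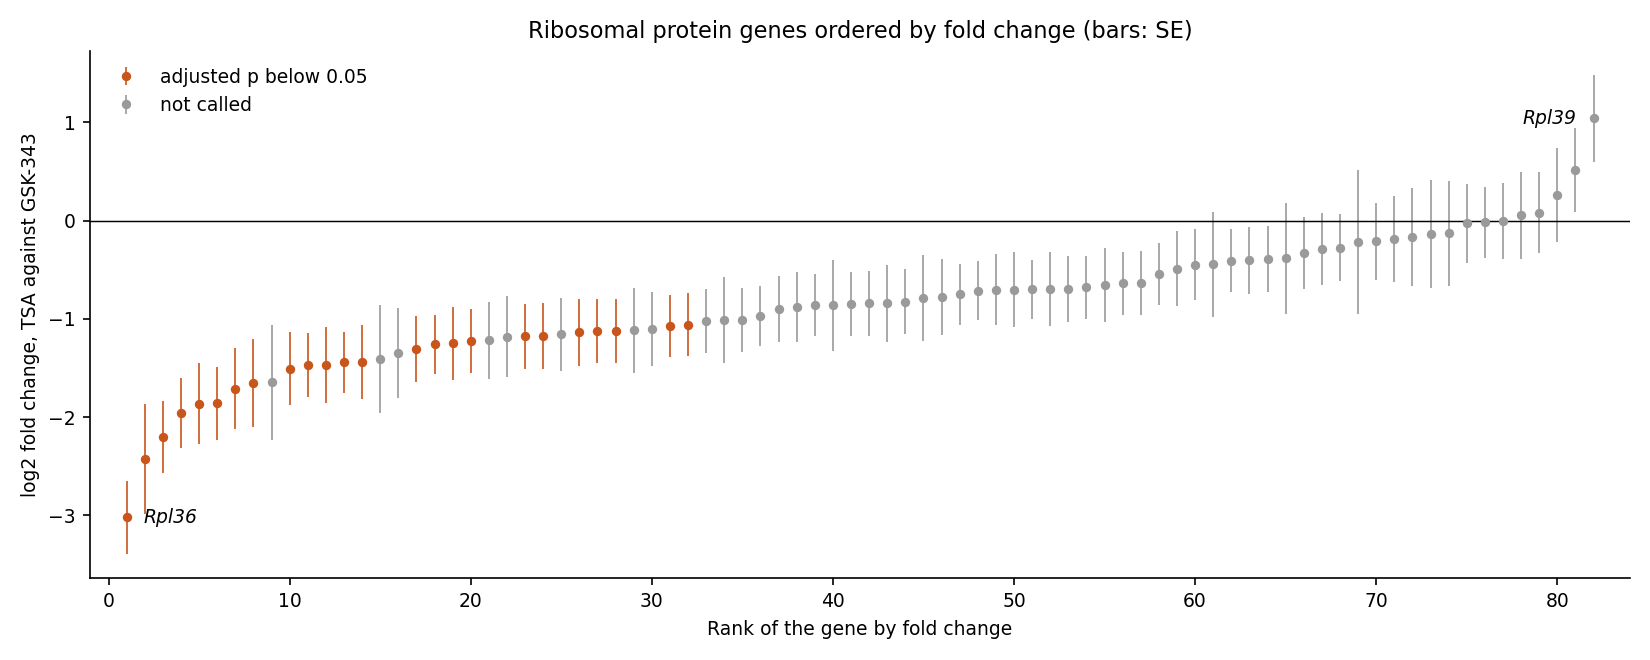
Log2 fold change of each of the 82 tested ribosomal protein genes, TSA against GSK-343, in ascending order of rank, with bars for the SE and colour for the adjusted p. The values run from −3.02 for Rpl36 to 1.04 for Rpl39, and all 24 called genes lie below 0.

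Among proteins of the large subunit, Rpl36 fell most. This gene (chr17:56613416-56614243, GRCm38, protein-coding) was measured at 498, 485 and 874 CPM with GSK-343, 74.2 and 78.3 CPM with TSA, and 104 and 91.0 CPM in DMSO. The TSA libraries were the lowest of the 7 and close together, and the 3 GSK-343 libraries lay above all others. The log2 fold change was −3.02 ± 0.37 (SE; adjusted p = 0.00132, edgeR), which is 8.11-fold lower with TSA. It was called under all 21 alternative settings, with adjusted p up to 0.0232.

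Rpl41 stood at 41.7, 82.3 and 86.0 CPM with GSK-343 and 25.5 and 12.9 CPM with TSA (log2 fold change −1.86 ± 0.41, adjusted p = 0.0132, edgeR). Rpl10, which joins the large subunit late in its assembly and lies near the peptidyl transferase centre, stood at 603, 643 and 786 CPM with GSK-343 and 209 and 289 CPM with TSA. Its log2 fold change was −1.44 ± 0.31 (adjusted p = 0.0117, edgeR), and the groups did not overlap. Also lower in the large subunit were Rpl18 (−1.71), Rpl28 (−1.65), Rpl13 (−1.47), Rpl8 (−1.44), Rpl7a (−1.12) and Rpl15 (−1.07), named after their values were seen. Rpl27, the member with the highest mean TPM, stood at 2031, 1328 and 1940 CPM with GSK-343 and 681 and 880 CPM with TSA (log2 fold change −1.18 ± 0.33, adjusted p = 0.0356, edgeR).

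The P stalk recruits the translation factors that hydrolyse GTP on the ribosome, and 2 of its 3 members fell. Rplp0, its base, was measured at 345, 663 and 596 CPM with GSK-343, 130 and 145 CPM with TSA, and 138 and 192 CPM in DMSO. GSK-343 lay above both other groups, which overlapped. The log2 fold change between TSA and GSK-343 was −1.96 ± 0.36 (adjusted p = 0.00567, edgeR). Rplp1 stood at 691, 568 and 716 CPM with GSK-343 and 299 and 251 CPM with TSA (−1.26 ± 0.30, adjusted p = 0.0182, edgeR). Rplp2, the partner of P1, gave −0.85 ± 0.33 and did not pass (adjusted p = 0.103), although both its TSA libraries, at 66.1 and 61.3 CPM, lay below the 97.8 to 129 CPM of GSK-343.

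The 5S RNP is the particle of 5S rRNA with RPL5 and RPL11, which also binds MDM2, the ubiquitin ligase of p53. Neither gene passed the test between TSA and GSK-343. Rpl5 stood at 575, 765 and 849 CPM with GSK-343 and 433 and 683 CPM with TSA, overlapping groups (−0.39 ± 0.34, adjusted p = 0.485, edgeR), and Rpl11 gave −0.84 ± 0.39 (adjusted p = 0.177). Rps27a, which is translated as a fusion with ubiquitin, gave −0.40 ± 0.34 (adjusted p = 0.474).

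On the head of the small subunit, 5 of 13 members fell. Rps15, which lies close to the decoding site, was measured at 364, 557 and 626 CPM with GSK-343, 109 and 115 CPM with TSA, and 101 and 179 CPM in DMSO. Its TSA values lay within the range of DMSO and below all 3 of GSK-343, and the log2 fold change was −2.20 ± 0.37 (adjusted p = 0.00376, edgeR). Rps12 and Rps16 gave −1.31 ± 0.33 and −1.17 ± 0.33, and Rps20, named after its value was seen, −1.25. In the body and platform 4 of 17 members fell, led by Rps26, which lines the exit channel of the mRNA. It stood at 86.7, 141 and 169 CPM with GSK-343 and 44.0 and 49.3 CPM with TSA (−1.50 ± 0.37, adjusted p = 0.0202, edgeR). Rps13 (−1.23 ± 0.32) and Rps2 (−1.06 ± 0.32) also fell. Rps15a, the member of this group with the highest mean TPM, gave −0.84 ± 0.33 and did not pass (adjusted p = 0.109).

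A few members stood apart from the rest. Rpl39, which lines the exit tunnel of the nascent peptide, stood at 5.10, 11.7 and 10.2 CPM with GSK-343 and 11.8 and 25.5 CPM with TSA, and its log2 fold change of 1.04 ± 0.44 did not pass (adjusted p = 0.14, edgeR). Rps24, of the small subunit body, gave 0.52 ± 0.43 and Rps27l 0.26 ± 0.48. Rps10, Rpl27a and Rpl36a had the largest adjusted p (0.991 to 1), with log2 fold changes of −0.02, −0.03 and 0.00. An SE of 0.36 to 0.40 stands behind each of these, so the data do not show that their levels were equal. Among second paralogs, Rpl7l1, a nucleolar relative of Rpl7 that acts in ribosome assembly, fell from 217, 161 and 188 CPM with GSK-343 to 83.2 and 90.3 CPM with TSA (−1.12 ± 0.33, adjusted p = 0.0406, edgeR). Rpl22l1 (0.08 ± 0.41), Rpl36al (−0.13 ± 0.53) and Rps27l did not pass. The muscle paralog Rpl3l and the testis paralog Rpl10l had no count in any library, where 3 counts correspond to 0.502 to 1.10 CPM before TMM scaling (counting error only), and Rpl39l had 1 count in TSA replicate 2.

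The count of 24 rests on few libraries. Left out 1 at a time, TSA replicate 2 brought it to 3, TSA replicate 1 to 7, GSK-343 replicate 3 to 9, GSK-343 replicate 2 to 13 and GSK-343 replicate 1 to 38, always with 0 higher. The share of all genes called lower moved too, to 0.441%, 3.66%, 3.08%, 3.78% and 7.80% in the same order. The median stayed negative throughout, from −1.12 to −0.63. Rpl36, Rps15 and Rplp0 were called in each of the 7 fits that left out a library. With limma on log2(TPM + 1) 3 were called lower (3.66%), against 0.895% of 19336 genes, and 0 higher, against 4.31%.

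The GC content of the members moved with their fold change. Across the 82 members the Spearman correlation of the log2 fold change with GC content was −0.54, and across 14870 genes tested with a GC value it was −0.37 (genes are not independent replicates, and all share the same libraries). In the 28 members with the highest GC content (53.8% to 60.8%) the median was −1.19 and 13 fell, and in the 27 with the lowest (39.1% to 49.1%) it was −0.54 and 4 fell. Rpl36, Rps15 and Rplp0 lie at 60.8%, 60.1% and 58.1% GC. After removal of a trend on GC content and length from each library, 13 members were called lower and 0 higher, against 5.02% and 2.94% of 14870 genes. Their median was −0.79, against −0.20 for all genes, and the correlation with GC content was −0.08. Rpl36 (−2.48), Rps15 (−1.46), Rplp0 (−1.29), Rpl10 (−1.44) and Rps13 (−1.51) were still called, while Rplp1 (−0.79) was not.

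**Figure D3:**
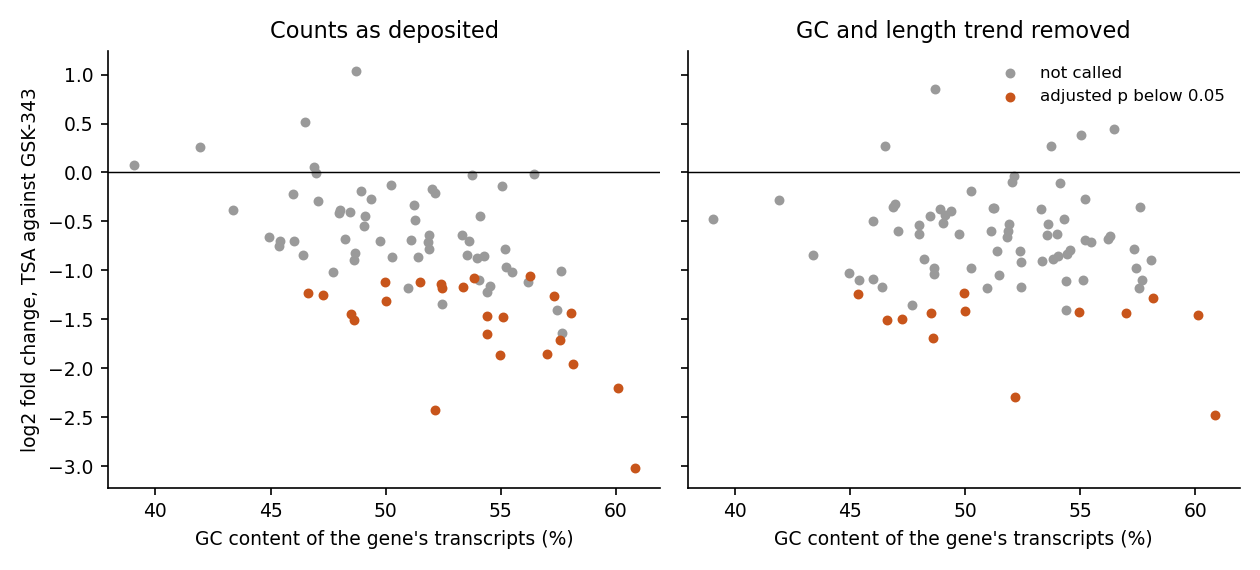
Log2 fold change of the 82 tested ribosomal protein genes, TSA against GSK-343, over the GC content of their transcripts in percent, from counts as deposited (left) and after removal of the trend on GC content and length (right). The slope on the left, a Spearman correlation of −0.54, is −0.08 on the right, where most genes still lie below 0.

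Markers of cell types and mitochondrial RNA moved between the same groups. The 21 supporting cell markers summed to 23614 to 28284 CPM with GSK-343 and 11151 to 12586 CPM with TSA (17616 and 20155 in DMSO), none was at 0 in any library, and 9 of 21 fell. The 10 neuron markers summed to 162 to 448 CPM with GSK-343 and 500 and 658 CPM with TSA. Of the 9 tested 3 rose, Prph was at 0 in all DMSO and GSK-343 libraries and Rbfox3 in TSA replicate 2. The 14 hair cell markers summed to 443 to 1151 CPM with GSK-343 and 614 and 2074 CPM with TSA, and 0 passed. The 8 glial markers summed to 171 to 297 CPM and 68.6 and 120 CPM, and 2 of the 6 tested fell. The 10 mesenchyme markers summed to 165 to 296 CPM with GSK-343 and 273 and 111 CPM with TSA (170 and 221 in DMSO). The 6 melanocyte markers summed to 110 to 201 CPM with GSK-343 and 101 and 101 CPM with TSA (238 and 200 in DMSO). Between TSA and GSK-343, 0 of the 10 mesenchyme markers tested and 0 of the 2 melanocyte markers tested passed. The 2 mitochondrial rRNAs took 3.47% to 8.60% of the counts with GSK-343 and 10.4% and 18.1% with TSA. The part of these shifts in the lower ribosomal protein mRNAs was not tested. Immune, endothelial and erythroid markers summed to at most 21.1, 19.0 and 4.43 CPM in any library, and Hbb-bt of the last list was at 0 in all 7 libraries.

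The other parts of the translation machinery were compared with the same test. Of the ribosomal proteins outside the symbol rule, Fau, whose product is cut into a ubiquitin-like protein and the small subunit protein RPS30, fell by 2.48 ± 0.42 on the log2 scale (adjusted p = 0.0038, edgeR). It stood at 124, 253 and 243 CPM with GSK-343 and 40.6 and 33.4 CPM with TSA. The scaffold gene Rack1 gave −0.64 ± 0.31 (adjusted p = 0.198). Of 20 translation factors whose mRNAs also carry a TOP tract, 1 fell and 0 rose, with a median of −0.31. That is 5.0% lower, near the 5.68% of all genes. The 1 was Eif3f, a subunit of initiation factor eIF3 (−1.12 ± 0.31, adjusted p = 0.0324). These share the tract, and their median lay above that of the ribosomal protein genes, a difference that was not tested.

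Of 55 tested genes for ribosome assembly and rRNA processing, 3 fell and 1 rose, with a median of −0.51. That is 5.45% lower, near the 5.68% of all genes, of which 5.04% rose. Mrto4 (−2.42 ± 0.52), which readies the pre-ribosome for the stalk, Eif6 (−1.97 ± 0.48), which keeps the subunits apart, and the rRNA methyltransferase gene Nop2 (−1.53 ± 0.44) fell, and Mdn1, a large ATPase of the pre-60S particle, rose by 1.27 ± 0.38 (named after its value was seen). Once the GC and length trend was taken out, 4 of this list fell and 0 rose, so the rise of Mdn1 lost its call. Of the 21 initiation factors 4 fell (19.0%) and 0 rose. Among the 4 were Eif1 (−1.72 ± 0.34), which guards the choice of start codon, and 2 subunits of the exchange factor for eIF2. These were Eif2b1 and Eif2b4 (−1.59 ± 0.37 and −1.86 ± 0.43). Of the 21 genes for control by mTORC1, LARP1 and MYC 2 fell (9.52%). They were Eif4a1, an RNA helicase (−1.63 ± 0.33), and Akt1s1, an inhibitory subunit of mTORC1 (−1.96 ± 0.60). None of the 15 genes for RNA polymerase I and its factors passed in either direction (median −0.55), and none of the 7 dedicated chaperones did (median −0.84). Of 78 genes for mitochondrial ribosomal proteins, 5 fell and 0 rose (6.41% lower, near the 5.68% of all genes), and 2 fell with the trend removed. Their median was −0.83, and −0.79 with the trend removed, close to the −0.85 and −0.79 of the cytoplasmic members. The shift of the median was therefore not particular to the cytoplasmic genes.

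Reads from near-identical copies bear on single members. BLAST of annotated pseudogenes against the members found 1436 copies of 82 members, and a window of 50 bases, the DMSO layout, taken anywhere in a member also occurred in another gene's transcripts for a median of 35.6% of windows. For windows of 211 bases, close to the treated layout, the median was 6.84%. RSEM shares such reads between genes, and 97.6% and 98.8% of the members' counts above 0 were not whole numbers in DMSO, against 35.4% to 48.8% in the treated libraries. All copies together took 10.7% and 13.3% of the family's counts (members plus copies) with TSA, 7.72% to 15.2% with GSK-343, and 33.9% and 34.3% for DMSO.

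One case between treated libraries is Rps3a1, on the small subunit platform, with its intronless copy Rps3a3 on chromosome 13. Over the 792 coding bases of Rps3a1, 783 were identical. The stretch of 120 coding bases with most differences (bases 141 to 260 from the start codon) is printed with its 2 differing bases in capitals, because only reads over such bases can tell the pair apart.
Rps3a1: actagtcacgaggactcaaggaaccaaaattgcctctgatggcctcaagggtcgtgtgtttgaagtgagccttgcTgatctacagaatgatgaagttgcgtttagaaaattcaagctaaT
Rps3a3: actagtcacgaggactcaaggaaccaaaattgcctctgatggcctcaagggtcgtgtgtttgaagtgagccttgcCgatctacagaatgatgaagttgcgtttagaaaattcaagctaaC
Rpl26: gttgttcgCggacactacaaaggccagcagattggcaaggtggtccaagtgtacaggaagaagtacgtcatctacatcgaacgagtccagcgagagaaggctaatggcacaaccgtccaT
Gm15772: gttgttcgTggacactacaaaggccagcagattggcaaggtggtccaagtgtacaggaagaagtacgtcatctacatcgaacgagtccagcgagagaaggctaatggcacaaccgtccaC

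The lower pair is Rpl26, a large subunit protein near the exit tunnel, with its copy Gm15772 on chromosome 5, over coding bases 169 to 288. These hold both of the 2 differences in 435 coding bases. Of 50-base windows in the coding part, 49.8% of those of Rps3a1 occurred in Rps3a3 and 74.1% of those of Rpl26 in Gm15772. For windows of 211 bases, close to the treated layout, the shares were 0.859% and 0.0%. What split the treated counts between gene and copy was not tested. Rps3a1 had 4001, 1218 and 6439 counts with GSK-343 while Rps3a3 had 3196, 8515 and 2242, so GSK-343 replicate 2 was the lowest for the gene and the highest for the copy. Summed with its copies, the family stood at 2293, 2967 and 2156 CPM, close together. The copy Rps3a2 had 902, 2458 and 641 counts, also highest in GSK-343 replicate 2, and Rpl3-ps1, a copy of Rpl3 with many counts, had 619, 1020 and 1178. Rpl26 had 419 and 86 counts in the TSA libraries and Gm15772 had 206 and 703. The log2 fold change of Rpl26 between TSA and GSK-343 was −2.43 ± 0.56 alone (adjusted p = 0.0193) and −1.43 with copies summed (adjusted p = 0.0142, edgeR). With copies summed, all 24 members called before were called again, 25 in total, against 5.7% called lower and 5.06% called higher of 14810 genes.

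Counts of calls against DMSO moved more when copies were summed. Of 97 copies tested on their own, 46 were lower and 13 higher with GSK-343 than in DMSO (edgeR), against 21.5% and 18.1% of all genes. Copies with at least 10 counts numbered 127 and 120 in DMSO and 28 to 47 in treated libraries. Copies could therefore pass the low-count filter through DMSO alone, which weights these counts toward lower calls. The coding bases of Rpl10a are identical to those of its copy Rpl10a-ps1 over all 651 bases. The copy took 1257 and 1132 counts in DMSO and 2 to 16 counts in the treated libraries. Rpl10a alone stood higher with GSK-343 than with DMSO (log2 fold change 1.45, adjusted p = 0.00336, edgeR) and lower once copies were summed (−0.79, adjusted p = 0.0465). It was the only member whose call turned over in that comparison. The coding bases of Rpl15, Rpl5 and Rps6 are likewise identical to those of Rpl15-ps3, Gm15500 and Rps6-ps4, which took 805 to 1222 counts in each DMSO library and 72 or fewer in each treated library.

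**Figure D4:**
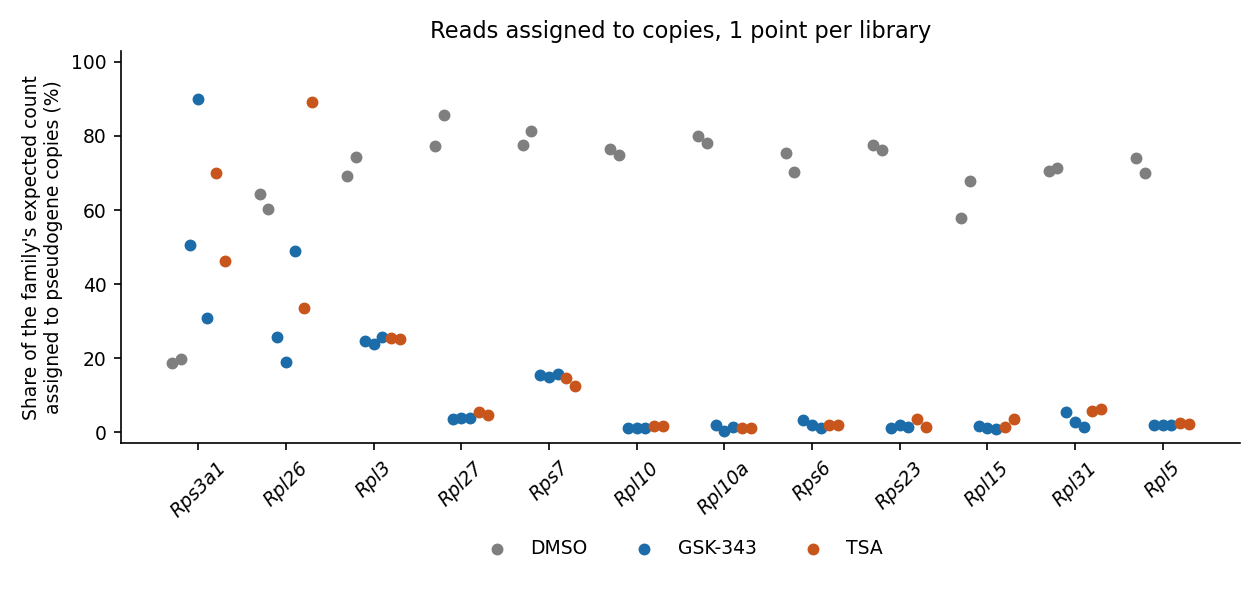
Share of each family's expected count, in percent, that was assigned to pseudogene copies, for 12 ribosomal protein genes, with 1 point per library coloured by group. For Rpl10a the DMSO points sit at 79.9% and 78.1% and the treated points at 2.0% or less, while for Rps3a1 and Rpl26 the treated libraries themselves scatter.

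Against DMSO, 42 members were higher and 13 lower with GSK-343 (edgeR), where 18.1% of all genes were called higher and 21.5% lower, and the members' median was 0.94 against −0.04 for all genes. With copies summed 30 were higher and 21 lower, against 17.9% and 21.5%, with a median of 0.39. With copies summed and the GC and length trend taken out they were 24 and 23, against 14.8% and 20.4% of all genes. The median was then −0.20, against −0.15 for all genes. The direction of the GSK-343 median turns there, and the members lie near all genes. On log2(TPM + 1), which divides by effective length, limma called 59 higher and 8 lower, against 21.3% and 16.4% of all genes. The median was 2.08, against 0.24 for all genes. Against DMSO with TSA, 19 members were higher and 22 lower, against 13.1% and 16.1% of all genes, with a median of −0.10. With copies summed 11 were higher and 29 lower, against 13.1% and 16%, with a median of −0.37. On log2(TPM + 1) limma called 52 higher and 9 lower, against 26.1% and 12.9%. The median was 1.40, against 0.67 for all genes, so the direction turns with the unit as well. Total count scaling gave 33 higher and 13 lower for TSA, and moved the median of all genes to 0.65 and that of the members to 0.60, so the direction of the TSA median flips with the scaling while its place relative to all genes, −0.05, does not. Over all genes the same scaling changed the calls from 1957 higher and 2402 lower to 3871 and 1307 for TSA, and from 2695 and 3208 to 3948 and 2273 for GSK-343. Without DMSO replicate 1 the TSA counts were 12 higher and 14 lower, without TSA replicate 1 they were 21 and 14, and without TSA replicate 2 they were 11 and 21. All genes called higher and lower were then 6.40% and 7.99%, 7.27% and 7.23%, and 5.97% and 5.12%. From the counts of the genes alone, the TSA median was 0.03 without DMSO replicate 2 and 0.10 without TSA replicate 1. Its direction there rests on single libraries. Both agents were compared with the same DMSO libraries. The mitochondrial rRNAs took 20.8% and 23.6% of the counts in DMSO, above every treated library, and 7 of 14 hair cell markers were higher with GSK-343 and 8 of 14 with TSA (medians 2.74 and 2.85), whose part in these results was not tested.

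Rpl27 stood highest over DMSO. This gene (chr11:101442298-101445529, GRCm38, protein-coding) was measured at 26.1 and 15.9 CPM in DMSO, against the 1328 to 2031 CPM of GSK-343 and the 681 and 880 CPM of TSA. Its log2 fold change with GSK-343 was 6.39 ± 0.44 (adjusted p = 3.57e-07, edgeR), or 4.02 with copies summed, and with TSA 5.21 ± 0.42 (adjusted p = 3.83e-06), or 2.86. Rps7, of the small subunit body, stood at 27.2 and 37.0 CPM in DMSO and at 367 to 545 CPM with GSK-343 (3.91 ± 0.40, or 1.83 with copies summed). Rpl7l1 stood at 10.3 and 13.0 CPM in DMSO and its fold changes of 4.01 ± 0.39 with GSK-343 and 2.89 ± 0.38 with TSA moved little when copies were summed (3.997 and 2.89). Rpl26 rose by 3.58 ± 0.60 with GSK-343 (2.70 with copies summed) and Rpl17, of the large subunit, by 2.57 ± 0.52 with TSA (1.39 with copies summed).

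The members furthest below DMSO were mostly among the shortest by deposited length: Rps27rt (370.0 bases), Rpl38 (364), Rps29 (390.1) and Rpl41 (476), though Rpl39 (596) was not. Rps27rt, an intronless relative of Rps27, had 671 and 406 counts in DMSO and 2 to 7 counts in the treated libraries (log2 fold change −6.95 ± 0.53 with GSK-343 and −7.17 ± 0.65 with TSA, edgeR). With so few treated counts it passed the low-count filter only through DMSO, and its fold changes rest on values near the floor. The coding bases of Rps27 are identical to those of Rps27rt over all 252 bases, so the reads of these 2 genes cannot be separated within the coding part. Rpl39 stood at 182 and 159 CPM in DMSO and at 5.10 to 11.7 CPM with GSK-343 (−4.23 ± 0.45, adjusted p = 1.35e-05, edgeR). Rps29, a zinc-binding protein of the head, gave −4.04 ± 0.48 with GSK-343 and −4.21 ± 0.57 with TSA. Rpl38, a small protein of the large subunit known from mouse skeletal patterning, gave −3.66 ± 0.51 and −3.79 ± 0.61. Rpl41 fell by 4.78 ± 0.48 with TSA and by 2.92 ± 0.38 with GSK-343. On the log2(TPM + 1) scale these falls were smaller: −3.02 and −1.44 for Rpl41 with TSA and GSK-343, and with GSK-343 −2.45 for Rps29, −1.90 for Rpl38, −2.96 for Rpl39 and −5.27 for Rps27rt.

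Length and fold change against DMSO moved together across members. In the 27 shortest (351 to 571 bases of deposited length) the median log2 fold change of GSK-343 against DMSO was −0.62 and 10 fell, and in the 28 longest (800 to 2606 bases) it was 1.74 and 21 rose. The Spearman correlation with length was 0.49 across the 82 members and −0.22 across all 14907 genes. With TSA it was 0.55 and −0.06. Between TSA and GSK-343, which share a layout, it was −0.03 across the members, with medians of −0.85 in the shortest and −0.84 in the longest. The effective length of Rpl41 averaged 442 bases in DMSO and 259 in treated libraries, and that of Rpl7l1, the longest member, 2557 and 2396. On log2(TPM + 1), with effective length divided out, the median of the shortest members was 1.01 with GSK-343, a turn in direction, and that of the longest 2.65. With TSA the medians were 0.29 and 2.08 on that scale, against −1.46 and 0.87 from counts.

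**Figure D5:**
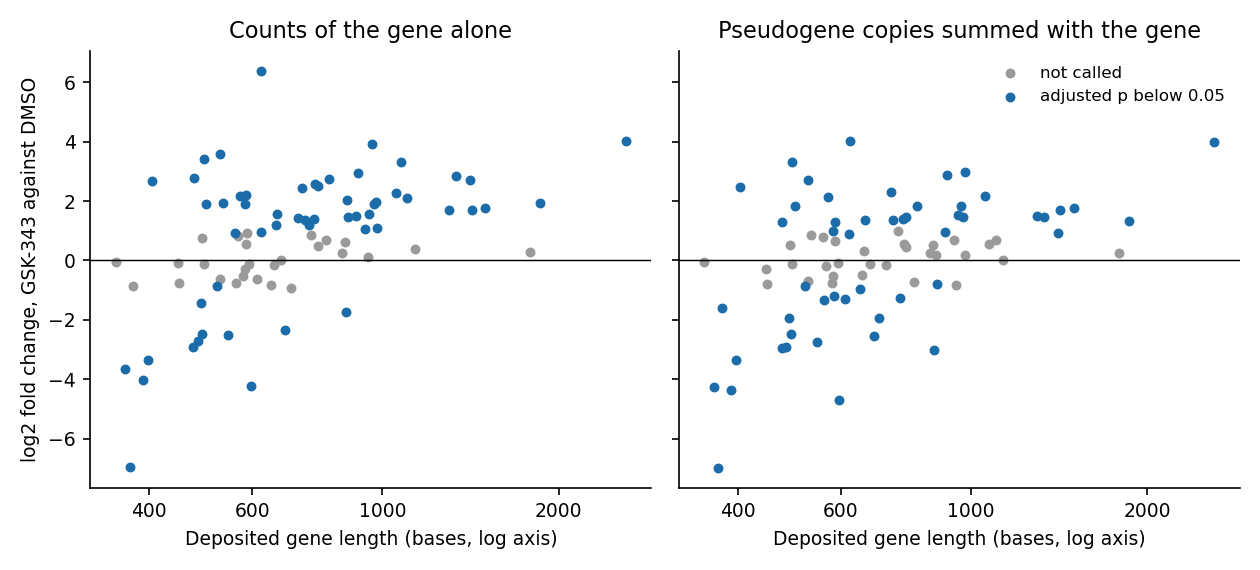
Log2 fold change of the 82 tested ribosomal protein genes, GSK-343 against DMSO, over the deposited gene length in bases (log axis), from the counts of the gene alone (left) and with its pseudogene copies summed (right). The 27 shortest genes have a median of −0.62 on the left, and the highest point, Rpl27, is at 6.39 on the left and 4.02 on the right.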

How the data were processed

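STAR, RSEM, DESeq2 and the build mm10 are named, per the submitters' processing notes; versions and the annotation release are not given in the sources used here. The expected counts, TPM, lengths and effective lengths are RSEM's estimates as deposited by the authors, per the file headers. Expected counts split reads that fit several genes; TPM divides by effective length and keeps no depth. Of 48709 genes, 48349 were found in GENCODE M21 by unversioned identifier, and symbols, lengths and GC content come from that annotation. The members and gene lists were chosen with earlier results of these data known.

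Expected counts were rounded, filtered with filterByExpr and fitted for all 7 libraries in edgeR 4.0.16 (R 4.3.3; TMM, robust quasi-likelihood F test, 4 residual degrees of freedom), with Benjamini-Hochberg adjustment over 14907 genes and a threshold of 0.05. TMM factors ran from 0.754 to 1.32 and the biological coefficient of variation was 0.43. The SE was taken as the size of the log2 fold change divided by the root of F. On simulated data with 200 changed genes among 14907, 4.48%, 31.3% and 71.2% of 2-, 4- and 8-fold changes between TSA and GSK-343 were recovered, with 5 false calls; for TSA against DMSO the shares were 1.49%, 34.3% and 59.1% (2 false), and for GSK-343 against DMSO 2.99%, 29.9% and 66.7% (3 false).

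Copies are pseudogenes that align to a member's transcript (BLAST+, at least 80% identity over at least 50% of the copy). Alternatives were DESeq2 1.42.0 size factors and Wald test, total count scaling, no low-count filter, only the 2 groups compared, the replicate number as a block, removal of a smooth trend on GC and length (spline, 5 degrees of freedom), protein-coding nuclear genes only, copies summed with members, limma 3.58.1 on log2(TPM + 1) and log2(TPM + 0.1) (the log2 scale is computed here from the deposited TPM), and each library left out. The fit without robust estimation and copies summed with the trend removed were added after the data were seen. The labels name no pairs and same-numbered libraries did not deviate together (correlations −0.09 to 0.04), so the numbers were not taken as pairs. In groups of 2 libraries the deviations mirror each other, so this check cannot settle whether the libraries were paired. Replicates differed by more than counting noise (chi-square per degree of freedom 14.0 to 40.4), and none was counted as a duplicate.

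Named genes follow a rule, and some that it names are not reported here: in each role group, up to 4 members with the smallest adjusted p between TSA and GSK-343 and the member with the highest mean TPM; the 3 members with the largest adjusted p and the 3 with the highest fold change; per comparison with DMSO, up to 4 called members with the largest rise and fall; all second paralogs and members that failed the filter; up to 3 genes per list of translation machinery; and 3 copies with the highest mean count. Members shown for their copies, and the mitochondrial ribosomal proteins, were chosen after their values were seen.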

Additional observations from a re-analysis of the deposited data

How the results depend on the processing

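Between TSA and GSK-343 0 members were called higher in every alternative run. The count called lower (24, where 5.68% of all genes were) was 12 with total count scaling (2.89%) and 10 with the replicate block (3.54%). It was 13 with the GC and length trend removed (5.02%) and 4 with the replicate block and that removal together (2.85%). With limma it was 3 on log2(TPM + 1) (0.895%) and 1 on log2(TPM + 0.1) (0.600%). Without the low-count filter it was 30 (3.20%), with DESeq2's Wald test 31 (7.12%), and with a GSK-343 library left out 9 to 38 (3.08% to 7.80%). The members' median (−0.85, against 0.00 for all genes) was −0.56 with block and removal together, against −0.12. Under both limma settings it was −0.45, against 0.24 and 0.33, and with a library left out it was −1.12 to −0.63. The labels do not say whether the replicate numbers pair the libraries. The block left 19 higher (11.9% of all genes) and 22 lower (14.2%) for TSA against DMSO. For GSK-343 against DMSO it left 35 (14.1%) and 12 (15.8%). For TSA against DMSO, 19 were higher (13.1% of all genes) and 22 lower (16.1%), with a median of −0.10, against −0.05 for all genes. Total count scaling gave 33 (25.97%), 13 (8.77%) and 0.60, against 0.65. Copies summed gave 11 higher (13.1%), 29 lower (16%) and −0.37, against −0.06. Copies summed with the trend removed gave 7 (10.3%), 36 (19.96%) and −0.75, against −0.32. Limma with pseudocount 1 gave 52 (26.1%), 9 (12.9%) and 1.40, against 0.67. With pseudocount 0.1 limma gave 49 (23.8%), 8 (11.8%) and 1.41, against 0.84. A library left out gave 11 to 22 higher and 14 to 23 lower. For GSK-343 against DMSO (42, 13, 0.94), the median was 1.40 with total count scaling and 0.54 with the trend removed. The block with removal gave 26 higher (10.3% of all genes) and 0.42, and copies summed 21 lower (21.5%) and 0.39. Copies summed with the trend removed gave 24 (14.8%), 23 (20.4%) and −0.20, where the median of all genes was −0.15. Limma gave 8 lower (16.4%) with 2.08 and again 8 (15.8%) with 2.09, where the medians of all genes were 0.24 and 0.29. The cause of these changes was not tested.

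Of 1229 values of single genes over the same alternatives, 938 stayed as they were, 190 lost and 13 gained a call, and 88 changed sign, all in genes not called between TSA and GSK-343. Log2 fold changes of other sign, with DESeq2 size factors, were 0.06 for Rpl27a, 0.08 for Rpl36a and 0.07 for Rps10, and in the same order 0.05, 0.07 and 0.06 with the Wald test, 0.01, 0.04 and 0.02 with only the 2 groups, and 0.00, 0.03 and 0.01 with protein-coding nuclear genes. Total count scaling gave Rpl27a 0.19, Rpl36a 0.22, Rpl36al 0.09, Rpl38 0.08, Rps10 0.21, Rps27rt 0.01 and Rps29 0.06. The replicate block gave Rpl27a 0.21, Rpl36a 0.15, Rpl36al 0.43, Rps10 0.14 and Rps29 0.34. The block with the trend removed gave Rpl22l1 −0.30, Rpl27a 0.42, Rpl36al 0.45, Rpl38 0.11, Rps10 0.57 and Rps29 0.36. The trend removed alone gave Rpl17 −0.35, Rpl22l1 −0.48, Rpl27a 0.27, Rpl38 0.39, Rps10 0.45 and Rps27l −0.28. Copies summed gave Rpl17 −0.08, Rpl36a 0.02 and Rps27rt 0.35, and with the trend removed too Rpl17 −0.35, Rpl22l1 −0.71, Rpl27a 0.53, Rpl38 0.49, Rps10 0.38, Rps24 −0.09, Rps27l −0.50 and Rps29 0.18. Both limma settings gave Rpl27a 0.34, Rpl36a 0.32, Rpl36al 0.37, Rpl38 0.29, Rps10 0.31, Rps29 0.22, Rps3a3 0.00 and Rps7 0.04, and Rps27rt 0.27 and 0.31. With a library left out the ranges were −0.39 to 0.40 for Rpl17, −0.41 to 0.43 for Rpl22l1, −0.41 to 0.26 for Rpl27a, −0.41 to 0.31 for Rpl36a, −0.55 to 0.39 for Rpl36al, −0.46 to 0.12 for Rpl38, −0.30 to 0.20 for Rps10, −0.21 to 0.98 for Rps24, −0.05 to 0.50 for Rps27l, −0.55 to 0.41 for Rps27rt, −0.78 to 0.38 for Rps29, −0.92 to 0.13 for Rps3a3 and −0.78 to 0.09 for Rps7. With 4 residual degrees of freedom and the recovery given with the methods, changes of 2-fold were mostly out of reach of the test.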
